A study of Mus musculus with 20 samples.

Results

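The mitochondrially encoded genes were the rows of the liver expression table whose symbol begins with mt-, and 37 of the 45306 genes of the table met this rule. They were 13 protein genes, 2 ribosomal RNA (rRNA) genes and 22 transfer RNA (tRNA) genes, the full gene set of the mouse mitochondrial chromosome. GENCODE vM21 (GRCm38 build) lists all 37, 28 on the plus strand and 9 on the minus strand. Of these genes, 35 passed the filter on low counts and were tested. The tRNA genes mt-Tf and mt-Tv did not pass it.

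The libraries came from whole liver of 20 mice with a C57BL/6 background, with 1 library per mouse and 5 mice per group. Control mice were wild type and were not exposed to cold. CE mice were wild type and spent 3 h of each day at 4 °C over 3 weeks. Sirt2-/- mice carried the knockout of Sirt2, a NAD-dependent deacetylase, without cold exposure, and Sirt2-/-/CE mice carried the knockout and received the same cold exposure. The knockout was made by injecting ribonucleoprotein into fertilized eggs and acts in every tissue. The mice were 5 weeks old at the start of the experiment. The labels give neither the sex of a mouse, the substrain nor the number of founders of the knockout line. Total counts ranged from 35499796 to 53917339 per mouse. Sirt2 itself was lower in the knockout mice, with a log2 fold change of -0.94 between Sirt2-/- and Control (edgeR adjusted p = 0.0145) and -1.11 between Sirt2-/-/CE and CE (adjusted p = 0.0043). The summed level of 9 hepatocyte markers found, of 10 listed, was 86017 to 188580 CPM (counts scaled to a common library size) over the 20 mice.

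Mitochondrial DNA is a small circle that stands in many copies in each cell. Its protein genes encode core subunits of the respiratory chain, namely mt-Nd1 to mt-Nd6 and mt-Nd4l of complex I (NADH dehydrogenase), mt-Cytb of complex III, mt-Co1 to mt-Co3 of complex IV (cytochrome c oxidase) and mt-Atp6 and mt-Atp8 of complex V (ATP synthase). The 2 rRNAs form the core of the mitochondrial ribosome, and the tRNAs decode the messages within the organelle. Both strands are transcribed into long RNAs that are cut mostly at the tRNAs, so that neighbouring genes share a precursor, while their mature RNAs differ in stability. Liver cells are rich in mitochondria, which carry out oxidative phosphorylation, fatty acid oxidation and part of urea synthesis.

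Reference sequences from the GENCODE transcripts (GRCm38) are shown for mt-Tg and mt-Tr, the tRNA genes that DESeq2 called, and for a pair and an overlap whose reads are hard to assign to 1 gene. The tRNA for glycine, mt-Tg, lies on chromosome M from 9391 to 9458, and the tRNA for arginine, mt-Tr, from 9808 to 9875, both on the plus strand. They flank mt-Nd3, and the capitals mark their anticodons.
mt-Tg: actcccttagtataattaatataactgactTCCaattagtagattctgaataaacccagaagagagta
mt-Tr: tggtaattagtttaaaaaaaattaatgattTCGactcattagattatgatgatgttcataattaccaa
The first 30 bases of mt-Nd3 (chrM:9459-9488, plus strand) are shown beside those of Gm28438, an annotated pseudogene on chromosome 1 (chr1:24613090-24613119, minus strand) that matches mt-Nd3 over 345 of its 348 bases with 1 mismatch. The capital marks that mismatch, T3C, counted from 1 at the first base of mt-Nd3.
mt-Nd3: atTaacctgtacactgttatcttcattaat
Gm28438: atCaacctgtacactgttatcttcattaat
The genes mt-Atp8 and mt-Atp6 overlap by 43 bases on the same strand (chrM:7927-7969), shown here because a read inside them belongs to both genes, and mt-Nd4l and mt-Nd4 overlap by 7 bases.
mt-Atp8 and mt-Atp6: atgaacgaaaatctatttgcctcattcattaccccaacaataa

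The share of all counts on the mt- genes did not separate the groups. It was 8.13%, 9.15%, 7.96%, 8.98% and 7.36% in the Control mice and 9.31%, 8.62%, 7.72%, 8.73% and 7.34% in the CE mice. It was 8.30%, 9.12%, 8.42%, 5.52% and 8.28% in the Sirt2-/- mice and 5.61%, 7.72%, 8.76%, 9.83% and 8.30% in the Sirt2-/-/CE mice. All groups overlapped, and the 2 lowest values belonged to Sirt2-/- mouse 14 and Sirt2-/-/CE mouse 16. In bulk liver, fewer cells of a type and less RNA per cell cannot be told apart in such a share.

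The group means were 8.32% ± 0.74 (SD, n = 5) in Control, 8.34% ± 0.80 in CE, 7.93% ± 1.39 in Sirt2-/- and 8.04% ± 1.56 in Sirt2-/-/CE. The differences of means, given without a test, were each smaller than the pooled SD of the groups. CE minus Control was 0.0235 percentage points (pooled SD 0.771), and Sirt2-/- minus Control was -0.391 (pooled SD 1.11). Sirt2-/-/CE minus Sirt2-/- was 0.117 (pooled SD 1.48), and Sirt2-/-/CE minus CE was -0.298 (pooled SD 1.24). The sign of each rested on single mice. CE minus Control was -0.218 without CE mouse 6, and it was also below 0 without any 1 of Control mice 1, 3 and 5 and CE mice 7 and 9. Likewise, Sirt2-/- minus Control was 0.211 without Sirt2-/- mouse 14. Sirt2-/-/CE minus Sirt2-/- ran from -0.485 without Sirt2-/- mouse 14 to 0.725 without Sirt2-/-/CE mouse 16, and Sirt2-/-/CE minus CE was 0.310 without the latter mouse.

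**Figure D1:**
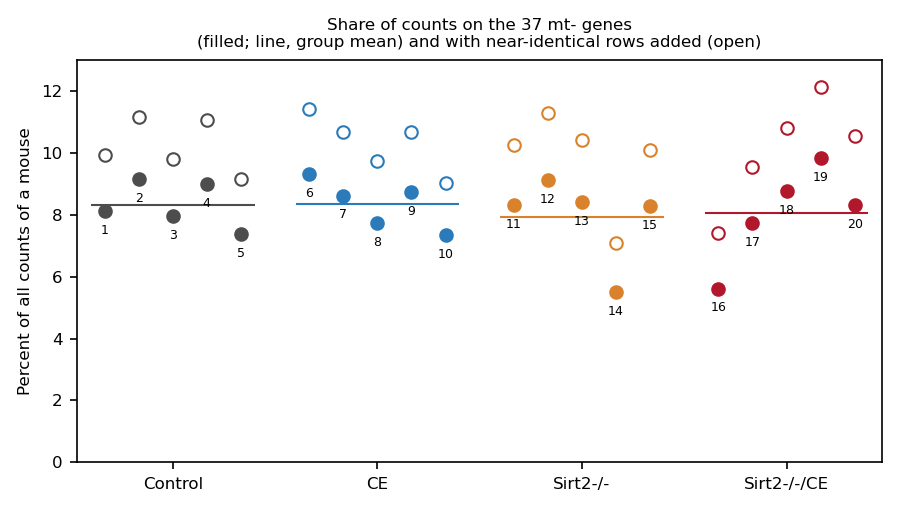
Percent of all counts of a mouse (vertical axis) on the 37 mt- genes (filled points, with a line at the group mean) and with the near-identical nuclear rows added (open points), for the 20 mice in 4 groups, numbered by mouse. The group means lie between 7.93% and 8.34%, and the filled points of Sirt2-/- mouse 14 (5.52%) and Sirt2-/-/CE mouse 16 (5.61%) stand below all others.

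Protein genes held nearly all of these counts, 97.4% to 99% of the mt- counts of a mouse. The 2 rRNA genes held 0.0587% to 0.162% of all counts and the tRNA genes 0.0221% to 0.0474%. Per the labels, RNA was selected with oligo(dT) beads before sequencing, so these are shares within poly(A)-selected RNA, and the order between classes of RNA is the order in such libraries.

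Levels between genes were compared in the deposited FPKM, which are scaled to gene length. The highest level was that of mt-Co1, the catalytic subunit of cytochrome c oxidase, with 17233 FPKM as the mean of the 20 mice. It was followed by mt-Cytb, the only mitochondrially encoded subunit of complex III, with 8220 FPKM, and by mt-Atp8 with 8018 FPKM and mt-Atp6 with 7180 FPKM. The 6 genes mt-Co2, mt-Nd2, mt-Co3, mt-Nd1, mt-Nd4 and mt-Nd4l had means from 6333 down to 3507 FPKM, and mt-Nd6 and mt-Nd5 had 2776 and 2693 FPKM. The lowest of the 13 protein genes was mt-Nd3 with 528 FPKM. This order is that of the rows as deposited. The rows of mt-Atp6, mt-Co2, mt-Co3 and mt-Nd4l hold about 50% of the reads of a pair with a nuclear copy (described with the copies), while mt-Cytb and mt-Atp8 have no such copy among the rows found. With the reads of the copies added over the length of the mitochondrial gene, mt-Atp6 had a mean of 14306 FPKM, mt-Co2 12281 FPKM and mt-Co3 10948 FPKM, all above mt-Cytb, and mt-Co1 had 18539 FPKM. Neighbours in the deposited order mostly overlapped in their ranges over mice, such as mt-Nd6 with 1624 to 3629 FPKM and mt-Nd5 with 801 to 4064 FPKM. In the deposited values the range of mt-Co1 did not overlap that of mt-Cytb, since its lowest mouse had 12413 FPKM and the highest mouse of mt-Cytb had 9908 FPKM. With the copies added, mt-Co1 ran from 13622 to 21957 FPKM and overlapped mt-Atp6, which reached 16792 FPKM.

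In these poly(A)-selected libraries the rRNAs were at 406 FPKM for mt-Rnr1, the RNA of the small ribosomal subunit, and 318 FPKM for mt-Rnr2, that of the large subunit. Among tRNAs, the highest means were those of mt-Te (glutamate) with 1560 FPKM and mt-Ts1 (serine) with 1102 FPKM, both encoded on the minus strand. The lowest were mt-Tf (phenylalanine) with 0.947 FPKM and mt-Tv (valine) with 1.45 FPKM. Counts per gene do not tell a mature tRNA, which carries no poly(A) tail, from a precursor that spans its gene. The handling of strand in the counting is also not given in the sources used here. RNA of the plus strand may therefore stand in the rows of mt-Te and mt-Ts1.

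**Figure D2:**
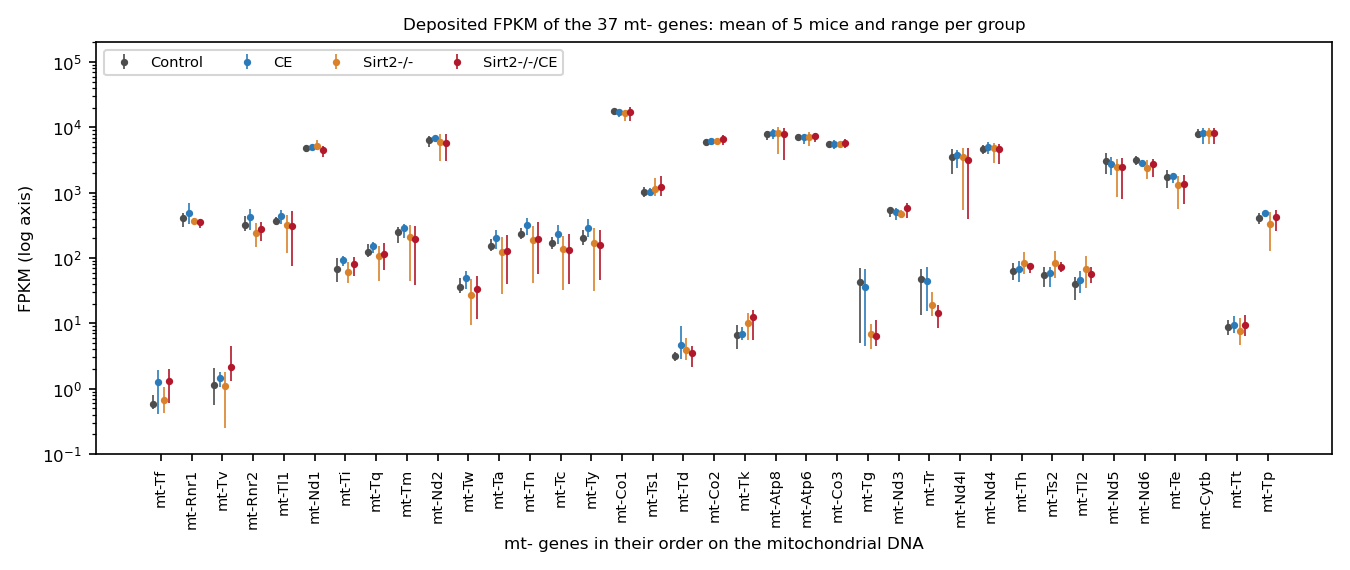
Deposited FPKM (vertical log axis) of the 37 mt- genes in their order on the mitochondrial DNA (horizontal axis), with points at the mean of 5 mice and bars from the lowest to the highest mouse of each group. In these deposited values, without the nuclear copies, the group means of mt-Co1 stand highest, from 16452 to 17817 FPKM, and mt-Tg and mt-Tr have the widest separation between wild-type and knockout means.

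Within the protein genes, the makeup was similar in most mice. mt-Co1 took a median of 35% of the counts on the 13 protein genes (range 30.8% to 38.4%), mt-Cytb took 12.3% and mt-Nd3 took 0.231%. The levels of mt-Nd1, mt-Co3 and mt-Co2 varied least, with a ratio of the highest to the lowest mouse of 1.53, 1.58 and 1.58 in CPM. The gene that varied most was mt-Nd4l, a small membrane subunit of complex I, with a ratio of 11. Its within-group SD was 1.02 on the log2 CPM scale, and it was still 0.86 for the ratio to the sum of the other protein genes. For mt-Co1 these values were 0.19 and 0.13.

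mt-Nd4l had 1288, 1499, 958, 1381 and 616 CPM in the Control mice and 1409, 1331, 866, 1377 and 1097 CPM in the CE mice. It had 1290, 1415, 1249, 159 and 964 CPM in the Sirt2-/- mice and 136, 1226, 1311, 1461 and 643 CPM in the Sirt2-/-/CE mice. Sirt2-/- mouse 14 and Sirt2-/-/CE mouse 16 stood far below all other mice, which ranged from 616 to 1499 CPM. mt-Nd5, the largest protein gene, was lowest in the same mice, with 1509 and 1666 CPM against 3786 to 8032 CPM elsewhere.

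These mice differed from the others across much of the mitochondrial gene set. In Sirt2-/- mouse 14, 16 of the 35 tested genes lay below 50% of the median of the 20 mice, 11 of them tRNAs. The number was 12 in Sirt2-/-/CE mouse 16 (8 tRNAs), 10 in Sirt2-/- mouse 15 (9 tRNAs), 6 in Sirt2-/-/CE mouse 20 (6 tRNAs) and at most 2 in each other mouse. Not all genes were low there. mt-Ts1 was at its highest in Sirt2-/- mouse 14 (111 CPM) and Sirt2-/-/CE mouse 16 (144 CPM), against 58.8 to 90.6 CPM in the other mice, and mt-Co3 was highest of all in Sirt2-/-/CE mouse 16.

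Sirt2-/- mouse 14 and Sirt2-/-/CE mouse 16 also stood apart in properties of the whole library. The mean log2 level of long transcripts (at least 6530 bases) minus that of short transcripts (at most 1088 bases), each as the deviation of a mouse from the mean of all mice, was -0.68 in Sirt2-/- mouse 14 and -1.21 in Sirt2-/-/CE mouse 16, and -0.47 to 0.59 elsewhere. The same difference of transcripts of low against high GC content was -0.57 and -0.79 in these mice and -0.25 to 0.30 elsewhere. In Sirt2-/- mouse 15, which had 10 low mt- genes, both differences were above 0, at 0.42 and 0.17. The noncoding nuclear RNA Neat1 was at 444 CPM in Sirt2-/- mouse 14 and 221 CPM in mouse 15, against at most 50.7 CPM in the other mice and 11.7 CPM in Sirt2-/-/CE mouse 16, the lowest of the 20. With the GC trend removed from each library, an alternative added after the data were seen, edgeR called 0 mt- genes in each comparison. The number with an unadjusted p under 0.05 was then 0 of 35 in CE against Control, beside 11.2% of all genes in the same fit, and 4 in Sirt2-/- against Control, beside 15.6%. It was 3 in Sirt2-/-/CE against Sirt2-/-, beside 7.64%, 7 in Sirt2-/-/CE against CE, beside 6.15%, and 1 in the interaction (mt-Nd6), beside 8.82%. The GC trend was fitted over nuclear genes, whose lowest GC decile ended at 41.29%. Every mt- protein gene (31.86% to 41.08%) and both rRNAs (35.4% and 35.81%) lay below this cut. Whether the trend holds for genes of such GC content was not tested. The part of the length trend and of Neat1 in the mitochondrial values was not tested, and results that rest on Sirt2-/- mouse 14 and Sirt2-/-/CE mouse 16 are given below with and without both mice.

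**Figure D3:**
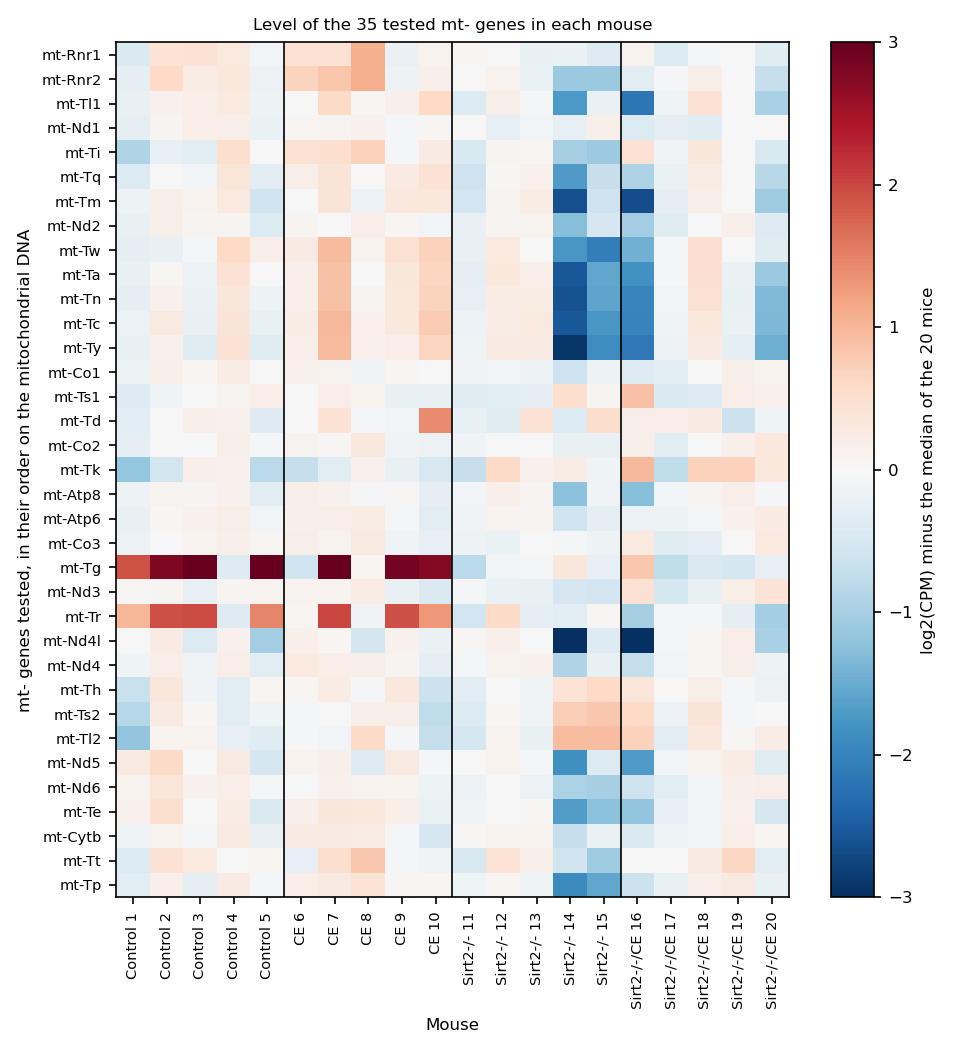
Log2 CPM of the 35 tested mt- genes (rows, in their order on the mitochondrial DNA) in each of the 20 mice (columns), as the difference from the median of the 20 mice, with red for higher and blue for lower. Blue runs through 11 tRNA genes of Sirt2-/- mouse 14 and 8 of Sirt2-/-/CE mouse 16 that lie below 50% of the median, and red marks mt-Tg and mt-Tr in 7 wild-type mice.

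The first comparison asked how mitochondrial RNA differed with intermittent cold in wild-type liver, and no mt- gene was called. edgeR's quasi-likelihood test, adjusted over all 15616 genes tested, called 0 of the 35 mt- genes at an adjusted p under 0.05 in either direction, beside 0% of all genes higher and 0.0064% lower. At an unadjusted p under 0.05 it also found 0 of the 35, beside 10.7% of all genes, and DESeq2 called 0 of 37, beside 1.04% of all genes. No mt- gene had CE and Control mice without overlap, beside 1.75% of all genes higher and 1.28% lower. The fitted log2 fold changes were above 0 for 9 of 13 protein genes, 18 of 20 tRNA genes and both rRNA genes, beside 49% of all genes. The medians were 0.04 for protein genes and 0.23 for tRNA genes, and -0.01 for all genes. The median of the protein genes was -0.02 without Control mouse 1, and it was also below 0 without Control mouse 5 or CE mouse 6.

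Both rRNAs had fitted values above 0 in this comparison. Several tRNAs had higher ones, up to a log2 fold change of 0.53 for mt-Td (edgeR adjusted p = 0.683). mt-Rnr2 was at 413, 744, 574, 613 and 440 CPM in the Control mice and at 790, 885, 1060, 442 and 554 CPM in the CE mice. mt-Rnr1 was at 284, 507, 520, 467 and 361 CPM in the Control mice and at 523, 515, 805, 333 and 411 CPM in the CE mice. Of the CE mice, 3 stood above all Control mice for mt-Rnr2 and 2 for mt-Rnr1, while the others lay within the Control range. The log2 fold change was 0.42 for mt-Rnr2 (SE 0.27, 95% interval -0.15 to 0.99, edgeR adjusted p = 0.631) and 0.27 for mt-Rnr1 (SE 0.21, adjusted p = 0.691). Without CE mouse 8 these values were 0.26 for mt-Rnr2 and 0.06 for mt-Rnr1. In the same comparison all 8 endothelial markers had fitted values below 0 (median log2 fold change -0.70, 2 of 8 with an unadjusted p under 0.05). So had all 7 lymphocyte markers (median -0.9997) and 6 of 8 stellate cell markers (median -0.62, 1 with an unadjusted p under 0.05), and all 5 erythrocyte markers tested (median -0.26). edgeR called 0 of these markers, and their part in the rRNA values was not tested.

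The second comparison asked what the loss of Sirt2 did without cold, and again edgeR called 0 of the 35 genes, beside 0.384% of all genes called higher and 0.506% called lower. At an unadjusted p under 0.05, 3 mt- genes were lower and 0 higher, which is 8.57% of the 35, beside 14.9% of all genes in both directions and 6.78% lower. They were mt-Tg, mt-Tr and mt-Nd6. DESeq2 called 2 genes, mt-Tg (adjusted p = 0.00152) and mt-Tr (adjusted p = 0.029), beside 3.86% of all genes. No mt- gene had groups without overlap, beside 1.45% of all genes higher and 2.16% lower.

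The fitted log2 fold changes between Sirt2-/- and Control were below 0 for all 13 protein genes, beside 48.3% of all genes, with a median of -0.15 against 0.02 for all genes. This direction depended on scaling and on mice. With scaling by library size only, which moves the median of all genes to 0.16 and the calls over all genes from 60 higher and 79 lower to 330 and 89, 7 of the 13 were below 0 and their median was -0.01. Without Sirt2-/- mouse 14 and Sirt2-/-/CE mouse 16, 9 of 13 were below 0 with a median of -0.08. Of the tRNA genes, 15 of 20 were below 0 with a median of -0.38, and with -0.19 without these mice. With the GC trend removed, all 13 protein genes were below 0 with a median of -0.11. Markers of other cells were not level in this comparison, with all 8 Kupffer cell markers (median 0.40) and all 8 endothelial markers (median 0.37) above 0 and all 7 lymphocyte markers (median -0.64) and all 5 erythrocyte markers tested (median -0.37) below 0. edgeR called 0 of them, and their part in the mitochondrial values was not tested. The rRNA values were -0.54 for mt-Rnr2 (SE 0.27, edgeR adjusted p = 0.354) and -0.31 for mt-Rnr1 (SE 0.21, adjusted p = 0.523), and -0.42 and -0.30 without the 2 mice.

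mt-Nd6 is the only protein gene on the minus strand and encodes a membrane subunit of complex I. It had 1711, 2041, 1741, 1800 and 1509 CPM in the Control mice and 1409, 1599, 1393, 819 and 796 CPM in the Sirt2-/- mice. Only Sirt2-/- mouse 12 lay within the Control range, and mice 14 and 15 were lowest. The log2 fold change was -0.55 (SE 0.19, 95% interval -0.96 to -0.14, edgeR unadjusted p = 0.0102, adjusted p = 0.175). It was -0.45 (edgeR unadjusted p = 0.0192) without Sirt2-/- mouse 14 and Sirt2-/-/CE mouse 16. Its annotated 3' end overlaps that of mt-Nd5 on the other strand by 14 bases. The long RNAs of the other strand cross the whole gene, and the handling of strand in the counting is not given in the sources used here. Reads of either strand may therefore stand in this row. The next lowest protein genes were mt-Nd5 (log2 fold change -0.47, edgeR adjusted p = 0.538), mt-Nd3 (-0.32, adjusted p = 0.419) and mt-Co1 (-0.27, adjusted p = 0.413). Without Sirt2-/- mouse 14 and Sirt2-/-/CE mouse 16 they were at -0.26, -0.28 and -0.19.

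mt-Tg and mt-Tr had the lowest fold changes of the set between Sirt2-/- and Control. mt-Tg was at 1.92, 3.59, 5.48, 0.392 and 4.43 CPM in the Control mice, 0.338, 5.16, 0.537, 3.76 and 3.46 CPM in the CE mice, 0.295, 0.487, 0.492, 0.650 and 0.430 CPM in the Sirt2-/- mice and 0.894, 0.301, 0.384, 0.362 and 0.435 CPM in the Sirt2-/-/CE mice. The wild-type mice fell apart, since Control mouse 4 and CE mice 6 and 8 were as low as the knockout mice. mt-Tr was at 2.66, 5.04, 5.13, 1.01 and 3.65 CPM in the Control mice, 1.38, 5.29, 1.24, 5.04 and 3.28 CPM in the CE mice, 0.885, 1.97, 1.09, 1.07 and 1.36 CPM in the Sirt2-/- mice and 0.670, 1.27, 1.30, 1.09 and 0.653 CPM in the Sirt2-/-/CE mice. The same Control mouse and the same CE mice were low.

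The log2 fold change between Sirt2-/- and Control was -2.74 for mt-Tg (SE 0.67, 95% interval -4.16 to -1.32, edgeR unadjusted p = 0.000579, adjusted p = 0.0547) and -1.45 for mt-Tr (SE 0.44, 95% interval -2.38 to -0.52, unadjusted p = 0.00362, adjusted p = 0.11). Leaving out Control mouse 4 brought both under the threshold of edgeR's test, with adjusted p = 0.0235 for mt-Tg and 0.0428 for mt-Tr. It was the only Control mouse at the level of the knockout mice, so leaving it out widens the difference by itself. In 9 of the 10 fits that left out 1 mouse of these groups, the calls of both genes were unchanged. These genes were counted with 13 to 222 reads per mouse for mt-Tg, so their levels are those of very few reads.

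The third comparison was between Sirt2-/-/CE and Sirt2-/-, the cold exposure within the knockout. edgeR called 0 of 35 mt- genes, beside 0% of all genes in each direction, and 1 mt- gene had an unadjusted p under 0.05, beside 7.25% of all genes. DESeq2 called 0 of 37, beside 0.0449% of all genes. No mt- gene had groups without overlap, beside 0.435% of all genes higher and 0.307% lower. The fitted values were above 0 for 11 of 13 protein genes (median 0.08), 11 of 20 tRNA genes (median 0.03) and both rRNA genes (median 0.13), beside 50.9% of all genes and a median of 0.01. Beside these, all 8 Kupffer cell markers (median 0.34), 7 of 8 endothelial markers (median 0.18) and all 5 erythrocyte markers tested (median 0.63) were above 0 and 6 of 7 lymphocyte markers (median -0.47) below it, with 0 called by edgeR, and their part in the mitochondrial values was not tested. The median of the protein genes was -0.07 without Sirt2-/- mouse 14, -0.03 without Sirt2-/-/CE mouse 19 and 0.19 without Sirt2-/-/CE mouse 16.

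The gene past the unadjusted threshold was mt-Nd3, a subunit of complex I. It had 205, 212, 169, 211 and 213 CPM in the Control mice and 214, 214, 232, 171 and 146 CPM in the CE mice. It had 194, 174, 171, 140 and 133 CPM in the Sirt2-/- mice and 272, 138, 170, 227 and 266 CPM in the Sirt2-/-/CE mice, of which 3 stood above all Sirt2-/- mice. The log2 fold change between Sirt2-/-/CE and Sirt2-/- was 0.40 (SE 0.18, edgeR unadjusted p = 0.0338, adjusted p = 0.667), and it was 0.26 (unadjusted p = 0.184) without Sirt2-/- mouse 14 and Sirt2-/-/CE mouse 16. With the GC trend removed it was 0.61 (edgeR unadjusted p = 0.0234, adjusted p = 0.589). With the reads of its nuclear copy added it was 0.38 (edgeR unadjusted p = 0.0552), and 0 mt- genes had an unadjusted p under 0.05 in this comparison. For mt-Nd6 the log2 fold change was 0.29 (SE 0.19, edgeR adjusted p = 0.805).

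The fourth comparison, Sirt2-/-/CE against CE, asked what the loss of Sirt2 did under cold. edgeR called 0 of 35 mt- genes, beside 0% of all genes higher and 0.0128% lower. At an unadjusted p under 0.05, 6 of the 35 genes were found, which is 17.1%, beside 6.09% of all genes. Of these, 5 were lower, namely mt-Rnr1, mt-Rnr2, mt-Tc, mt-Tg and mt-Tr, beside 2.2% of all genes, and mt-Tk was higher. DESeq2 called mt-Tg (adjusted p = 0.0355) and mt-Tr (adjusted p = 0.0498), beside 0.209% of all genes. No mt- gene had groups without overlap, beside 0.813% of all genes higher and 0.41% lower. The fitted values were below 0 for 11 of 13 protein genes (median -0.15), 15 of 20 tRNA genes (median -0.51) and both rRNA genes, beside 47.4% of all genes. Without Sirt2-/- mouse 14 and Sirt2-/-/CE mouse 16 the medians were -0.05 for protein genes and -0.42 for tRNA genes.

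Both rRNAs had an unadjusted p under 0.05 with fitted levels below those of CE mice, and neither passed the adjusted test. mt-Rnr2 was at 391, 485, 562, 497 and 307 CPM in the Sirt2-/-/CE mice, against 442 to 1060 CPM in the CE mice listed above, and mt-Rnr1 was at 412, 286, 376, 385 and 298 CPM, against 333 to 805 CPM. The groups overlapped for both genes, and CE mouse 9 was the lowest CE mouse for both. The log2 fold change was -0.74 for mt-Rnr2 (SE 0.27, 95% interval -1.31 to -0.16, edgeR unadjusted p = 0.0134, adjusted p = 0.631). It was -0.56 for mt-Rnr1 (SE 0.21, edgeR unadjusted p = 0.0137, adjusted p = 0.632). Without CE mouse 8 the values were closer to 0, at -0.58 for mt-Rnr2 and -0.34 for mt-Rnr1. Without Sirt2-/- mouse 14 and Sirt2-/-/CE mouse 16 they were -0.70 and -0.63. With the GC trend removed they were -0.63 (edgeR unadjusted p = 0.0215) and -0.41 (unadjusted p = 0.108). The share of all counts on the 2 rRNAs was 0.119% ± 0.034 (SD, n = 5) in CE and 0.0816% ± 0.016 in Sirt2-/-/CE, and 0 of 5 Sirt2-/-/CE mice were above the CE mean.

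Of the tRNAs, mt-Tg had a log2 fold change of -2.48 between Sirt2-/-/CE and CE (SE 0.67, edgeR unadjusted p = 0.00136, adjusted p = 0.426) and mt-Tr of -1.70 (SE 0.45, unadjusted p = 0.00106, adjusted p = 0.426). The tRNA for cysteine, mt-Tc, was at 13.9, 23.5, 13.2, 14.9 and 20.2 CPM in the CE mice and at 2.98, 10.9, 14.9, 10.5 and 4.74 CPM in the Sirt2-/-/CE mice. Sirt2-/-/CE mice 16 and 20 were far below the rest, and mouse 18 lay within the CE range. Its log2 fold change was -0.96 (SE 0.45, edgeR unadjusted p = 0.0438, adjusted p = 0.791), and -0.74 (unadjusted p = 0.0451) without Sirt2-/- mouse 14 and Sirt2-/-/CE mouse 16. The tRNA for lysine, mt-Tk, had 0.386, 0.496, 0.679, 0.537 and 0.444 CPM in the CE mice and 1.22, 0.366, 1.01, 1.01 and 0.773 CPM in the Sirt2-/-/CE mice, of which all but mouse 17 were above all CE mice. Its log2 fold change was 0.78 (SE 0.36, edgeR unadjusted p = 0.0452, adjusted p = 0.799), and 0.63 (unadjusted p = 0.124) without the 2 mice.

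Markers of some other liver cells had fitted values above 0 in the same comparison. The fitted values of all 8 endothelial markers were higher in Sirt2-/-/CE than in CE mice (median log2 fold change 1.31, 8 of 8 with an unadjusted p under 0.05, 0 called by edgeR after adjustment), and their summed level was 237 to 400 CPM against 45.3 to 222 CPM. The same held for the 8 Kupffer cell markers found, of 9 listed (median 0.81, 6 of 8 with an unadjusted p under 0.05, 0 called by edgeR), with 320 to 584 CPM against 130 to 456 CPM. Of the stellate cell markers, 7 of 8 were above 0 (median 0.60, 2 with an unadjusted p under 0.05), and of the erythrocyte markers tested, 4 of 5 (median 0.57). The lymphocyte and cholangiocyte lists did not share this direction, with 5 of 7 (median -0.11) and 3 of 6 (median -0.09, 2 with an unadjusted p under 0.05) below 0. No marker of these lists was at 0 in every mouse. Their part in the rRNA and tRNA values was not tested.

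The interaction of genotype and cold, which tests whether the cold difference depended on genotype, gave 0 calls among the 35 mt- genes by edgeR, beside 0% of all genes in each direction. It found 0 of the 35 at an unadjusted p under 0.05, beside 8.34% of all genes, and DESeq2 called 0 of 37, beside 0.268%. The interaction of mt-Nd3 was 0.45 (SE 0.25, edgeR adjusted p = 0.661) and that of mt-Nd6 was 0.40 (SE 0.27, adjusted p = 0.735).

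**Figure D4:**
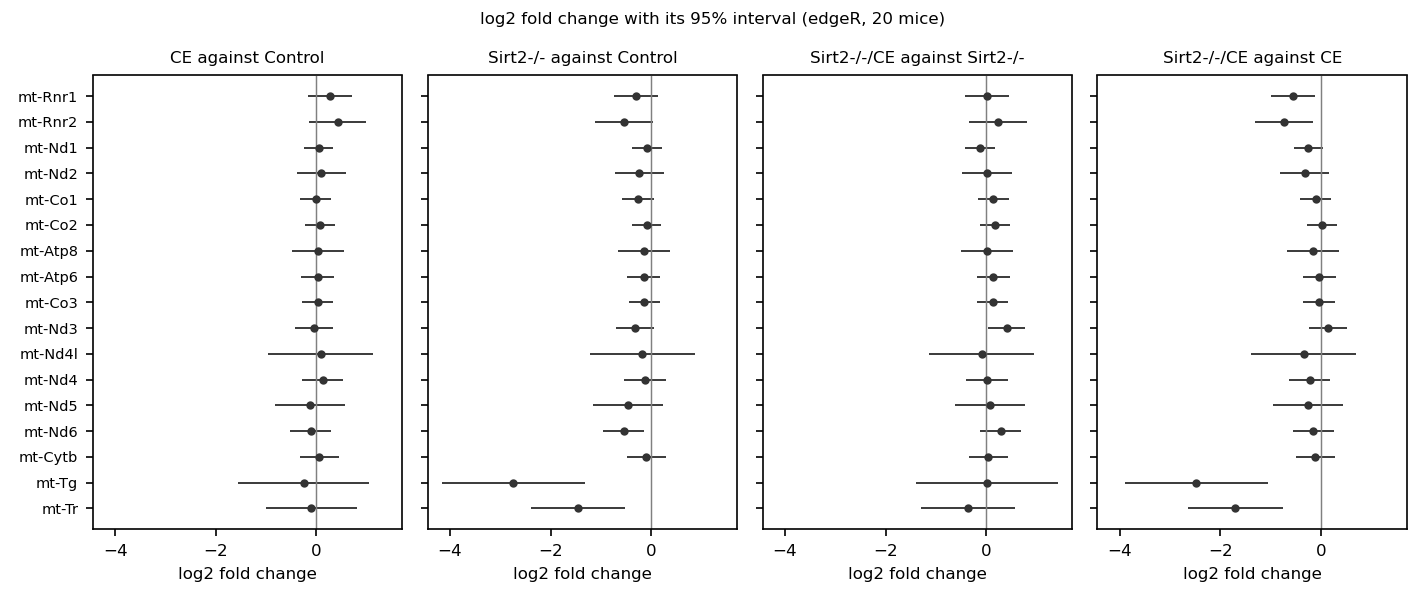
Log2 fold changes (horizontal axis) of the 13 protein genes, both rRNAs, mt-Tg and mt-Tr in the 4 pairwise comparisons, with bars for the 95% interval from the edgeR fit of 20 mice. Most protein genes lie within 0.5 of 0, while mt-Tg and mt-Tr lie at -2.74 and -1.45 in Sirt2-/- against Control and at -2.48 and -1.70 in Sirt2-/-/CE against CE. The sign of mt-Tg and mt-Tr in CE against Control, and of mt-Tg in Sirt2-/-/CE against Sirt2-/-, turned under alternatives.

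Copies of mitochondrial genes in the nuclear genome share reads with them. A search of the annotated transcripts (minimum identity 95%, minimum length 150 bases) found 11 such pseudogene rows in the table. Of these, 7 lie side by side on chromosome 1 from 24611535 to 24616197, on the minus strand, and they held at least 99.7% of the counts of the 11 rows. The near-identical rows took 1.55% to 2.28% of all counts of a mouse. With them added, the mitochondrial share was 7.07% to 12.1%. No group stood apart in it either, with means of 10.2% in Control, 10.3% in CE, 9.83% in Sirt2-/- and 10.1% in Sirt2-/-/CE.

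Where the copy was identical to the mitochondrial gene over nearly its whole length, the counts were split nearly evenly. The mitochondrial gene took 49.0% to 51.8% of the counts of mt-Atp6 and Gm10925, which are identical over 678 bases. It took 50.3% to 53.2% of those of mt-Co2 and Gm28661 (681 bases), 50.2% to 54.9% of those of mt-Co3 and Gm28437 (783 bases) and 49.3% to 54.1% of those of mt-Nd4l and Gm10222 (294 bases). The levels of these 4 genes in the table are therefore those of a row that holds about 50% of the reads of its pair. Partial copies took less. Gm28439, which matches the first 876 of the 1378 bases of mt-Nd4, had 15.4 to 39.9 counts per 100 counts on mt-Nd4, and Gm29216, which matches the last 483 of the 1545 bases of mt-Co1, had 4.78 to 15.8 per 100. Both extremes of the split lay in mice named above. Gm28439 was lowest in Sirt2-/-/CE mouse 16 (15.4) and Sirt2-/- mouse 14 (20.3), and Gm29216 was highest in Sirt2-/-/CE mouse 16 (15.8). Summing each row with its mitochondrial gene before the fit left 0 genes called in each comparison and the same number of protein genes below 0 in Sirt2-/- against Control.

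The split between mt-Nd3 and Gm28438, the pair with the T3C mismatch, followed mt-Tg and mt-Tr. The percent of the pair counted on mt-Nd3 was 52.5% to 54.8% in 7 mice, Control mice 1, 2, 3 and 5 and CE mice 7, 9 and 10. These were the mice with 1.92 to 5.48 CPM of mt-Tg and 2.66 to 5.29 CPM of mt-Tr. In the other 13 mice, Control mouse 4, CE mice 6 and 8 and all 10 knockout mice, it was 44.1% to 49.7%, with 0.295 to 0.894 CPM of mt-Tg and 0.653 to 1.97 CPM of mt-Tr. The ranges of the 7 and the 13 mice did not overlap for any of the 3 values, which is a description of these mice and not a test, since they were divided at the widest gap of mt-Tg, a ratio of 2.15.

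The place of these genes on the chromosome 1 copy is a gap in the annotation. Between Gm28437 and Gm28438 lie 69 bases (chr1:24613120-24613188) and between Gm28438 and Gm10222 lie 74 bases (chr1:24612701-24612774), where mt-Tg and mt-Tr lie in the mitochondrial order. The search for near-identical rows could not find a copy of a tRNA, since its minimum length was 150 bases. The longest run of A in the reference mt-Tr is 8 bases, from base 14. The files hold counts and not bases, so which base a mouse carried at position 3 of mt-Nd3 (chromosome M 9461) and how long its run of A was were not tested. Genotype and this division cannot be told apart among the knockout mice, all of which fell on 1 side.

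**Figure D5:**
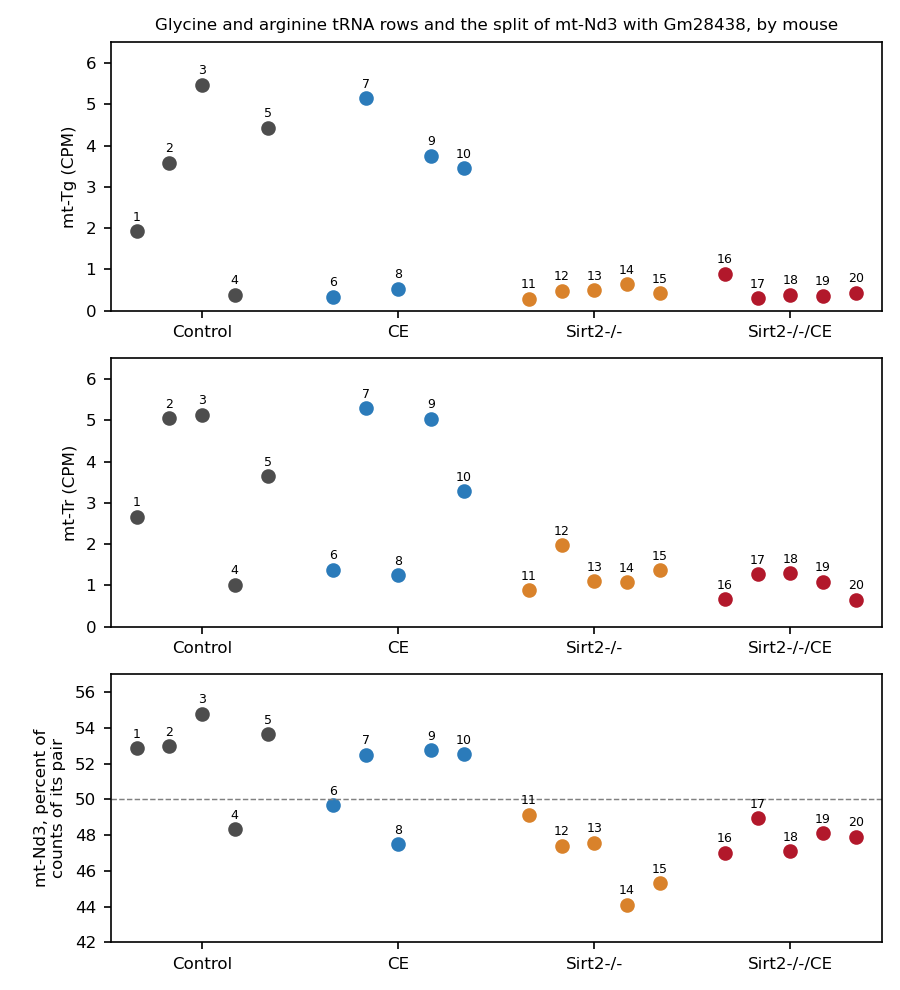
Level of mt-Tg (top, CPM), level of mt-Tr (middle, CPM) and percent of the counts of the mt-Nd3 and Gm28438 pair that lie on mt-Nd3 (bottom, dashed line at an even split) for each of the 20 mice, numbered, in 4 groups. The same 7 wild-type mice stand high in all 3 panels, with 52.5% to 54.8% in the bottom panel against 44.1% to 49.7% in the others.

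No nuclear gene listed for mitochondrial gene expression passed the adjusted test. Lists were read by their counts and medians, with 0 members called by edgeR in each of the 4 comparisons. With scaling by library size only, 1 transcription gene, 2 RNA processing genes and 1 translation factor were called in Sirt2-/- against Control, beside 2.68% of all genes in that fit, whose median of all genes is 0.16. Tfam, which packages mitochondrial DNA and starts its transcription, had log2 fold changes of -0.10 in CE against Control, 0.02 in Sirt2-/- against Control, -0.12 in Sirt2-/-/CE against Sirt2-/- and 0.01 in Sirt2-/-/CE against CE. For Polrmt, the mitochondrial RNA polymerase, the values were 0.17, 0.06, 0.04 and -0.06. Tfb2m, the transcription initiation factor, had the lowest unadjusted p of the nuclear genes named in these paragraphs, with -0.33 in Sirt2-/-/CE against Sirt2-/- (edgeR unadjusted p = 0.0124, adjusted p = 0.563).

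The genes named for RNA handling were not called by edgeR with TMM scaling. Lrpprc, which with Slirp stabilizes mitochondrial messages, had values from -0.13 to 0.10 over the 4 comparisons, and Slirp from -0.07 to 0.40. The highest of these, in Sirt2-/-/CE against Sirt2-/-, was 0.13 without Sirt2-/-/CE mouse 16. Mtpap, the mitochondrial poly(A) polymerase, had -0.14 to 0.17, and Pnpt1, which degrades mitochondrial RNA, had -0.13 to 0.18. Ppargc1a, a coactivator of mitochondrial biogenesis that cold is known to induce in brown fat, was at a log2 fold change of 0.94 in CE against Control (SE 0.52, edgeR unadjusted p = 0.0836, adjusted p = 0.555). It was the only 1 of the 8 listed regulators of biogenesis above 0 in that comparison. The other 7 were below 0, and the median of the list was -0.23. Ppargc1a was at 0.54 in Sirt2-/- against Control, -0.19 in Sirt2-/-/CE against Sirt2-/- and -0.59 in Sirt2-/-/CE against CE, and its interaction was -1.13 (SE 0.73, edgeR adjusted p = 0.715). The values that involve the Sirt2-/- group rest on Sirt2-/- mouse 11, which had 33.7 CPM against 2.77 to 7.54 CPM in the other Sirt2-/- mice. Without it the values were -0.51 in Sirt2-/- against Control and 0.86 in Sirt2-/-/CE against Sirt2-/-, both of the opposite sign, and -0.08 for the interaction.

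The lists covered 10 genes of mitochondrial DNA transcription, 11 of 12 of its replication, 21 of RNA processing, 10 translation factors, 8 regulators of biogenesis and the mitoribosomal proteins. The last were all symbols beginning with Mrpl or Mrps and a digit, 81 rows of which 79 were tested, and 4 of the 81 have pseudogene symbols. Between Sirt2-/- and Control, 9 of 10 transcription genes (median 0.17) and 15 of 21 RNA processing genes (median 0.09) were above 0, beside 51.7% of all genes. So were 9 of 10 translation factors (median 0.16), 6 of 11 replication genes (median 0.10), 3 of 8 regulators of biogenesis (median -0.10) and 44 of 79 mitoribosomal rows (median 0.03). Without Sirt2-/- mouse 14 and Sirt2-/-/CE mouse 16 the medians were 0.06 for transcription, 0.06 for RNA processing, 0.17 for translation factors, -0.03 for replication, -0.01 for biogenesis and -0.06 for the mitoribosomal rows. With a median of 0.19, 76 of 79 mitoribosomal rows were above 0 between Sirt2-/-/CE and CE, but 38 of 79 without these mice (median -0.01). Leaving out the pseudogene symbols, 75 of 77 were above 0, and 37 of 77 without these mice. Between Sirt2-/-/CE and Sirt2-/-, 6 of 10 transcription genes were below 0, with a median of -0.22 against 0.01 for all genes. Of these, 3 had an edgeR unadjusted p under 0.05, beside 7.25% of all genes in both directions.

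Complexes I, III, IV and V hold subunits from both genomes, whose values were set side by side, while complex II has nuclear subunits only. Between Sirt2-/- and Control, 5 of 7 nuclear core subunits of complex I were below 0 (median log2 fold change -0.12), and all 7 mitochondrial ones (median -0.24). Without Sirt2-/- mouse 14 and Sirt2-/-/CE mouse 16 the order turned, with medians of -0.22 and -0.08. Of the complex II subunits, 3 of 4 were below 0 (median -0.20). Between Sirt2-/- and Control, all 9 nuclear subunits of complex III were below 0 (median log2 fold change -0.28), as were all 11 of complex IV (median -0.33) and all 15 of complex V (median -0.27). The mitochondrially encoded subunits were at -0.10 for mt-Cytb of complex III and at medians of -0.14 for complex IV and -0.15 for complex V. Without Sirt2-/- mouse 14 and Sirt2-/-/CE mouse 16 the nuclear medians were -0.35, -0.38 and -0.35, and the mitochondrial values were 0.01, -0.17 and -0.02. With scaling by library size only, 12 of 15 nuclear complex V subunits were below 0. The mitochondrial values of complexes III to V then lay at or above 0, with 0.04 for mt-Cytb and medians of 0.01 for complex IV and 0.0003 for complex V. Over all 13 mitochondrial protein genes, those of complex I included, 7 were below 0 in that fit.

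Between Sirt2-/-/CE and Sirt2-/-, the nuclear subunits of complexes III to V were all above 0, with medians of 0.46 for complex III, 0.48 for complex IV and 0.40 for complex V, and 0.33, 0.31 and 0.26 without these 2 mice. Unadjusted p-values under 0.05 were found for 7 of 9, 9 of 11 and 10 of 15 of them, beside 7.25% of all genes, and for 2, 3 and 7 without the 2 mice, beside 4.63% of all genes. The mitochondrial counterparts were at 0.04 for mt-Cytb, 0.14 for complex IV and 0.08 for complex V, and at 0.01, 0.13 and 0.06 without the 2 mice. For complex I the medians were 0.23 over 7 nuclear core subunits and 0.02 over the mitochondrial ones. The summed level of the nuclear complex IV subunits was 1351, 1145, 1347, 1514 and 907 CPM in the Sirt2-/- mice. It was 2737, 1192, 1209, 1479 and 1949 CPM in the Sirt2-/-/CE mice, of which mice 17, 18 and 19 lay within the Sirt2-/- range. The same held for complexes III and V. Sirt2-/-/CE mouse 20, which stood above that range, had length and GC differences of -0.34 and -0.25. The difference between nuclear and mitochondrial subunits was not tested.

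In the other comparisons the medians of the subunits of the 2 genomes lay on opposite sides of 0. Between Sirt2-/-/CE and CE, every nuclear subunit listed for complexes I to V was above 0, with medians of 0.22, 0.19, 0.26, 0.23 and 0.26, while the mitochondrial medians were -0.25 for complex I, -0.11 for mt-Cytb, -0.04 for complex IV and -0.10 for complex V. When Sirt2-/- mouse 14 and Sirt2-/-/CE mouse 16 were left out, of which the latter alone belongs to this comparison, 4 of 7, 3 of 4, 6 of 9, 5 of 11 and 12 of 15 were above 0, with medians of 0.004, 0.09, 0.05, -0.01 and 0.05. Between CE and Control, the nuclear medians were -0.06 for complex I, -0.07 for complex III, -0.06 for complex IV and -0.10 for complex V, and the mitochondrial values were 0.04, 0.06, 0.02 and 0.03.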

How the data were processed

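RNA of whole liver was measured in 20 mice, with groups taken from the labels (4 groups, 5 mice each, a single library for every mouse). The authors deposited 1 table with 2 values per gene and mouse. The first is a count of reads, deposited as whole numbers without normalization. The second is FPKM, in which the authors divided by gene length and library depth. The submitters' processing notes name the build mm10. Which aligner and counting tool were used, whether strand was used, and how reads matching several places were assigned are not given in the sources used here. The division of reads between mitochondrial genes, their nuclear copies and overlapping genes depends on these. Lines without a gene (9) were dropped.

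Counts were analysed in R 4.3.3 with edgeR 4.0.16. Genes were kept by filterByExpr (minimum count 10, minimum total 15), scaled by TMM and fitted by quasi-likelihood over all 20 mice, with group in the design and no covariate. The test was two-sided, with Benjamini-Hochberg adjustment over 15616 genes and a threshold of 0.05. The common dispersion was 0.147, and intervals of 95% used the SE and 16 residual degrees of freedom. The labels give no batch or date, and p-values measure the spread between these mice. Depth was 35499796 to 53917339 counts. The procedure was tested on simulated counts.

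FPKM with the copies added is the FPKM of the gene times 1 plus the ratio of the copies' counts to its own. A share is the sum of the mt- counts divided by all counts of the mouse, and no p was computed for it or for any list. CPM used TMM-scaled library sizes, and the prior count of log2 CPM was 2. Near-identical rows were searched with BLAST+ 2.17.0 among GENCODE vM21 transcripts, which hold 42456 of 43339 Ensembl identifiers of the table. Trends with transcript length and GC content were taken over 14792 nuclear genes. Alternatives were DESeq2 1.42.0, limma 3.58.1 (voom with quality weights, and log2 FPKM with a pseudocount of 1), other scalings and filters, only the groups compared, and leaving out each mouse.

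The members, lists, tests and alternatives were chosen with earlier results of these data known. The genes named were Sirt2, every mt- gene that passed the filter, Tfam, Polrmt, Tfb2m, Twnk (no row of this symbol was found), Lrpprc, Slirp, Pnpt1, Mtpap, Ppargc1a, any list member called by edgeR with TMM in the 4 pairwise comparisons (none was), and the 6 near-identical rows with at least 1% of the mt- counts in any mouse. Outside this rule, mt-Tf, mt-Tv, Gm28438 and Neat1 were named after their values were seen. Summing near-identical rows, removing the GC trend and leaving out Sirt2-/- replicate 14 and Sirt2-/-/CE replicate 16 together, and leaving out the pseudogene symbols of the mitoribosomal list, were added after the data were seen. Figures were drawn with matplotlib 3.10.9.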

Additional observations from a re-analysis of the deposited data

Results flagged for a closer look

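Of 144 groups of 5 values examined (the mitochondrial share and the CPM of 35 genes in 4 groups), 7 had a highest or lowest mouse whose gap to its nearest neighbour was more than 0.71 of the range of the group, where chance gives about 1 in 20 groups. The number flagged is close to that rate, and the groups are not independent, since each mouse enters many of them. In Sirt2-/- mouse 14, the share of counts on mt- genes was 5.52%, with the nearest mouse of the group at 8.28%. The same mouse had 18625 CPM of mt-Co1, with the nearest at 25782 CPM, and 768 CPM of mt-Atp8, with the nearest at 1663 CPM. In Sirt2-/-/CE mouse 16, mt-Atp8 was at 743 CPM, with the nearest at 1693 CPM, and mt-Tg was at 0.894 CPM, the highest of its group, with the nearest at 0.435 CPM. In Control mouse 3, mt-Nd3 was at 169 CPM, with the nearest at 205 CPM. In CE mouse 10, mt-Td was at 0.710 CPM, the highest of its group, with the nearest at 0.358 CPM. Sirt2-/- mouse 14 and Sirt2-/-/CE mouse 16 together gave 5 of the 7 values. Their length and GC trends, and the comparisons with the GC trend removed, are given with the results, and these single levels were not recomputed with it.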

How the results depend on the processing

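The number of mt- genes called was 0 in each comparison, and it moved in 2 of them. For Sirt2-/- against Control it was 2 with DESeq2 (mt-Tg and mt-Tr), 1 with scaling by library size only (mt-Tg, edgeR adjusted p = 0.045) and 1 with at least 10 counts required in every library (mt-Tg, edgeR adjusted p = 0.0412), and it ranged from 0 to 2 when each mouse was left out, with 2 without Control replicate 4. For Sirt2-/-/CE against CE it was 2 with DESeq2 (mt-Tg and mt-Tr). The cause was not tested. Among the fold changes followed over all alternatives (both rRNAs, mt-Tg, mt-Tr, mt-Nd6, mt-Co1 and mt-Nd5 in Sirt2-/- against Control, for example), 8 values passed the threshold, all of mt-Tg or mt-Tr. Other protein genes turned sign, such as mt-Nd1, mt-Co2, mt-Nd4 and mt-Cytb in Sirt2-/- against Control with scaling by library size only (0.07, 0.05, 0.02 and 0.04). The fold changes of mt-Tg and mt-Tr in CE against Control, and of mt-Tg in Sirt2-/-/CE against Sirt2-/-, turned sign under alternatives. They are drawn in the plot of fold changes and not given as values. Values without a test were less stable in sign. The differences of the mitochondrial share in all 4 comparisons, and the median of the protein genes in both cold comparisons and in the interaction, turned sign when single mice were left out, by less than the spread between mice. The share also turned with the difference of medians (0.172 for Sirt2-/- minus Control).

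The calls over all genes, which serve as the background, moved more. For Sirt2-/- against Control they were 139, but 611 with DESeq2, 906 with limma voom, 329 with limma on log2 FPKM, 419 with library size only, 209 with at least 10 counts in every library, 35 with no filter and 29 with only the groups compared, 18 without Sirt2-/- replicate 14 and Sirt2-/-/CE replicate 16, and 5 to 375 when each mouse was left out. For CE against Control the 1 call became 165 with DESeq2, 540 with limma voom and 0 to 68 when each mouse was left out. For Sirt2-/-/CE against CE the 2 calls became 33 with DESeq2 and 1 to 6 when each mouse was left out. For the interaction and for Sirt2-/-/CE against Sirt2-/- the 0 calls became 45 and 8 with DESeq2.

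No paired analysis was possible because the replicate numbers run from 1 to 20 and no number occurs in more than 1 group. The limits are 5 mice per group, few reads on rare tRNA genes, an unknown rule for reads that match nuclear copies, and libraries that differ in their trends with length and GC content.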
